A study of Mus musculus with 3 samples.

Results

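Levels of 10 nuclear long noncoding RNAs (lncRNAs) and small nucleolar RNA (snoRNA) host genes were followed across 3 mouse mammary tumours. The genes were taken by symbol: Malat1 and Neat1, which are retained in the nucleus, and the snoRNA hosts Gas5, Snhg1, Snhg3, Snhg5, Snhg6, Snhg8, Snhg12 and Epb41l4aos. All 10 were found among the 47480 gene symbols measured, and all 10 passed the filter on low counts, which kept 12710 genes. The tumours form a single group of the strain FVB-MMTV-Neu, in which the mouse mammary tumour virus promoter drives the Neu oncogene mainly in mammary epithelium. Per the labels, tumours were placed orthotopically in syngeneic hosts, grew to 5 mm and then for 7 more days without treatment, whereas the design text speaks of untreated MMTV-Neu mice. With no second group there is no comparison of conditions. Nothing says whether the tumours came from separate donor animals, so the spread given here is that between these samples.

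Malat1 is an abundant transcript of nuclear speckles, the compartments that store splicing factors, and Neat1 is the RNA scaffold of paraspeckles. snoRNA host genes carry snoRNAs in their introns. After splicing, the intron yields a snoRNA that guides chemical modification or processing of ribosomal RNA, while the spliced exons of many hosts are turned over by nonsense-mediated decay. Many host transcripts begin with a pyrimidine-rich stretch, as do the mRNAs of ribosomal proteins, a class known as 5′ terminal oligopyrimidine (TOP) transcripts.

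The start sites of the hosts are shown because the hosts' levels are compared below with those of TOP genes. RefSeq start sites (build GRCm38.p6) matched 7 of the 10 members, with 2 starts for Gas5. Each line gives 60 bases before the start and 40 bases from it, 5′ to 3′. Capitals mark TATA where its first base lies 40 to 20 bases before the start, and the longest run of C and T from 10 bases before to 20 bases after the start. TATA reads the same on both strands.
Gas5, chr1:161035106-161035205, plus strand: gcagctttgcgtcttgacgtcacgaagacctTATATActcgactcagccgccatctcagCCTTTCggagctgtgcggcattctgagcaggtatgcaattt
Snhg1, chr19:8723427-8723526, plus strand: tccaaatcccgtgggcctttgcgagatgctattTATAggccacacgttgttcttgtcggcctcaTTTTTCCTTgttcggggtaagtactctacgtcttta
Snhg5, chr9:88522858-88522957, minus strand: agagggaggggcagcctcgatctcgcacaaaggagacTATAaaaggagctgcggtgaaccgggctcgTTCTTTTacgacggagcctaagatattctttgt
Snhg8, chr3:123508297-123508396, minus strand: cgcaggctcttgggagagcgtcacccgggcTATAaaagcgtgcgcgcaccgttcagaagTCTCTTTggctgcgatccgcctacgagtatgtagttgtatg
Snhg12, chr4:132308618-132308717, plus strand: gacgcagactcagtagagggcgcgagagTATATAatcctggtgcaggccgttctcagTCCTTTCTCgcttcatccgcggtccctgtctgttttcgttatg
Snhg3, chr4:132353647-132353746, minus strand: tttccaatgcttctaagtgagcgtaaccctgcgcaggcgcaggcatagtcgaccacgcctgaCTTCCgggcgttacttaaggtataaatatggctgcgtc
Of the 7 starts of 6 host genes, 5 had TATA in that interval, against 5.81% of all 32851 RefSeq start sites. The first Gas5 start, not printed, and that of Snhg3 had none. The pyrimidine run had 9 bases in Snhg1 and in Snhg12, a length that 7.11% of all starts reach, and 7 bases in Snhg5 and in Snhg8, which 17.9% reach. At the second Gas5 start, the one printed, it had 6 bases, at the first 3 bases, which 88.3% of starts reach, and at the Snhg3 start 5 bases, against a median of 4 bases over all starts. These intervals were chosen after the sequences had been seen, and a match is a description only. The run can lie anywhere in its interval, and in Snhg1, Snhg3 and Snhg5 it began after the first transcribed base. The starts of the TOP genes compared below were not examined.

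Malat1 ends without a conventional poly(A) tail. Its end is protected by a genome-encoded A-rich tract that pairs with U-rich stretches just before it, and the tRNA-like mascRNA is cut off behind it. This end is shown because the libraries were made with an mRNA kit, a kind that selects poly(A) RNA, and the run of 12 A bases, in capitals, is encoded in the genome. The sequence is from the GENCODE M21 transcript (GRCm38).
Malat1 3′ end, chr19:5795978-5796099, minus strand: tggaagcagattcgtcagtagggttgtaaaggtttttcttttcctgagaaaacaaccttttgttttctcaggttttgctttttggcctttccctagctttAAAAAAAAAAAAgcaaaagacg

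The library of tumour 1 was the deepest, with a total of 47449153 estimated counts, followed by tumour 3 with 17147394 and tumour 2 with 11388769. In tumours 1, 2 and 3 the 10 members together held 0.155, 0.124 and 0.114% of them. Tumour 1 stood apart from the others in many ways. It was run in lane 1 and the others in lane 5, so lane and tumour 1 cannot be told apart. The ribosomal symbol Rn18s-rs5 took 0.200% of counts in tumour 1, against 7.87 and 6.68% in tumours 2 and 3. The mean length of each gene's longest annotated transcript, weighted by counts, was 3408 bases in tumour 1, against 2970 and 2821 bases. The summed level of 7 skeletal muscle markers was 4.55 CPM (counts scaled to a common library total) in tumour 1, against 45240 CPM in tumour 2 and 19272 CPM in tumour 3, with no marker at 0. All 5 epithelial markers (Krt8, Krt18, Epcam, Cdh1 and Erbb2) were present in each tumour, at a summed 1486, 1336 and 1985 CPM. Endothelial markers summed to 123, 887 and 299 CPM. Of these, Pecam1 was at 56.4, 775 and 231 CPM, whereas Cdh5 (41.2, 72.5 and 46.3 CPM), Kdr (19.2, 33.6 and 15.6 CPM) and Tek (5.87, 6.46 and 5.59 CPM) differed less. Fibroblast markers summed to 2898, 5755 and 2968 CPM, and leukocyte markers to 125, 276 and 256 CPM with Cd79a at 0 in tumour 2. Adipocyte markers summed to 257, 163 and 129 CPM, and erythroid markers to 106, 1485 and 835 CPM. The part of these differences in the results below was not tested. In bulk tissue, fewer cells of a type and less RNA per cell cannot be told apart.

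Malat1 and Neat1 are neighbours in one locus and went apart between the tumours. Malat1 (chromosome 19, 5795690 to 5802672, minus strand, GRCm38) is a single-exon gene of 6983 bases, and Neat1 (chromosome 19, 5824708 to 5845478, minus strand) lies 22.0 kb away. Malat1 was at 75.1 CPM in tumour 1 (exact 95% Poisson interval 73.1 to 77.2, which covers counting error only), 1031 CPM in tumour 2 (1009 to 1053) and 520 CPM in tumour 3 (509 to 531). Tumour 1 was low, and the intervals of the 3 libraries did not overlap. On the log2 scale Malat1 was lower in tumour 1 than the mean of the others by −3.28, and its rank among the 12710 genes was 1940 in tumour 1, against 161 and 278. Neat1 was at 706 CPM in tumour 1 (700.0 to 713), 398 CPM in tumour 2 (385 to 412) and 276 CPM in tumour 3 (268 to 284). Tumour 1 was the highest here, 1.09 above the mean of the others on the log2 scale, but less than 2-fold above tumour 2.

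The ratio of the 2 transcripts within a library does not depend on how libraries are scaled. Malat1 had 0.106 counts per Neat1 count in tumour 1 (95% exact binomial interval 0.103 to 0.109), 2.59 in tumour 2 (2.48 to 2.70) and 1.89 in tumour 3 (1.82 to 1.96). Neat1 counts thus exceeded Malat1 counts 9.40-fold in tumour 1, whereas Malat1 counts exceeded Neat1 counts in both tumours of lane 5. Such a ratio shows unequal change and does not say which of the genes differed. Of the estimated counts of all members, Neat1 held 66.6% in tumour 1, against 22.6 and 22.1%, and Malat1 held 7.09% in tumour 1, against 58.5 and 41.7%.

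The protein-coding gene nearest to Neat1 is Frmd8, 4223 bases away. Frmd8 was at 71.0, 9.45 and 22.2 CPM in tumours 1, 2 and 3, highest in tumour 1 like Neat1. The symbol Gm37376, annotated inside Malat1 on the opposite strand, had 40, 195 and 112 counts. Because no strand setting is given in the sources used here, its reads cannot be told apart from Malat1 reads. GENCODE lists 4 Neat1 transcripts of 711 to 20771 bases. The deposited values are per gene, so the short and the long Neat1 forms are not separated.

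**Figure D1:**
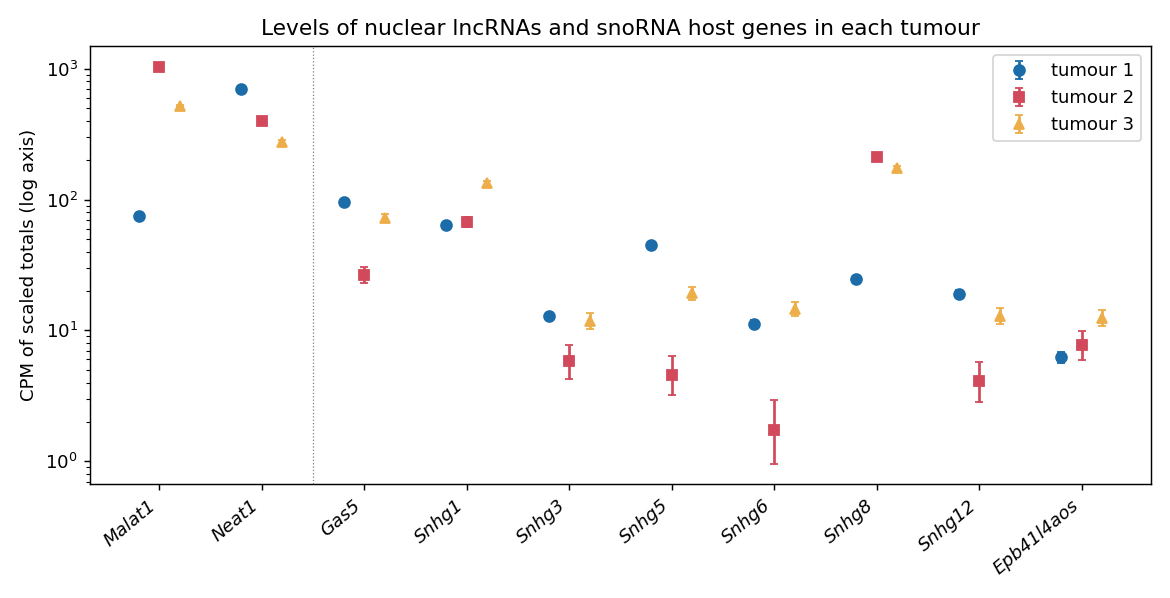
CPM of the scaled totals (log axis) of each member in tumours 1, 2 and 3, with exact 95% Poisson intervals as bars. Malat1 and Snhg8 have their lowest point in tumour 1, at 75.1 and 24.9 CPM, while Gas5, Snhg3, Snhg5, Snhg6 and Snhg12 have theirs in tumour 2.

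Among the host genes, Gas5, named for its build-up in growth-arrested cells and host of several box C/D snoRNAs, had 6591, 214 and 1143 estimated counts in tumours 1, 2 and 3. Its level was 95.3 CPM in tumour 1 (92.99 to 97.6), 26.6 CPM in tumour 2 (23.2 to 30.4) and 72.6 CPM in tumour 3 (68.5 to 77.0). Tumour 2 was the low one. Snhg5, host of Snord50a and Snord50b, was at 45.3, 4.599 and 19.3 CPM. It was the only member whose tumour 1 level was 2-fold or more above both others, and tumours 2 and 3 also differed from each other, by −2.05 on the log2 scale (tumour 2 minus tumour 3).

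Snhg6, host of Snord87, was at 11.3 CPM in tumour 1, 1.74 CPM in tumour 2 (0.951 to 2.92, from 14 counts) and 14.6 CPM in tumour 3. It had the largest difference of all members between tumours 2 and 3, at −3.02 on the log2 scale, although few counts lie behind the tumour 2 value. Snhg12, host of H/ACA snoRNAs such as Snora44 and Snora61, was at 19.2, 4.10 and 12.8 CPM. Snhg3, host of Snora73a and Snora73b, was at 12.8, 5.84 and 11.8 CPM. Snhg3 and Snhg12 lie 37.0 kb apart on chromosome 4 and were both lowest in tumour 2. Snhg3 overlaps Rcc1, the gene of a chromatin-bound exchange factor, on the same strand, so that reads can be shared between them. Rcc1 was at 87.3, 314 and 206 CPM and did not follow Snhg3.

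Snhg8, Snhg1 and Epb41l4aos did not have their low point in tumour 2. Snhg8 (chromosome 3, 123507552 to 123508404, minus strand), host of the H/ACA snoRNA Snora24, was at 24.9 CPM in tumour 1 (23.8 to 26.1), 213 CPM in tumour 2 (203 to 224) and 175 CPM in tumour 3 (169 to 182). It resembled Malat1 in being low in tumour 1, by −2.95 against the mean of the others on the log2 scale. Snhg1, host of Snord22 and other box C/D snoRNAs, was at 63.6, 67.6 and 133 CPM and was highest in tumour 3. Its neighbour Slc3a2, which encodes the heavy chain of amino acid transporters, lies 105 bases away on the opposite strand and was at 207, 270 and 374 CPM, also highest in tumour 3. Epb41l4aos, on chromosome 18, had the lowest mean CPM of the members, at 6.23, 7.71 and 12.5 CPM, and was again highest in tumour 3. In tumour 2 the levels of Snhg3, Snhg5, Snhg6 and Snhg12 were below its own. The protein-coding gene Epb41l4a, 340 bases away, was highest in tumour 1, at 21.2, 3.73 and 4.004 CPM.

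Ratios within a library set the hosts apart from each other as well. Gas5 had 3.82 counts per Snhg8 count in tumour 1 (3.63 to 4.03), 0.125 in tumour 2 (0.108 to 0.144) and 0.414 in tumour 3 (0.386 to 0.444). The order of this pair was thus turned round between tumour 1 and the others. Gas5 had 1.498, 0.393 and 0.546 counts per Snhg1 count, and 2.10, 5.78 and 3.77 counts per Snhg5 count, so that Snhg5 was relatively scarcer than Gas5 in tumours 2 and 3. Snhg8 and Malat1 kept closer to each other, at 0.332, 0.207 and 0.337 Snhg8 counts per Malat1 count.

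**Figure D2:**
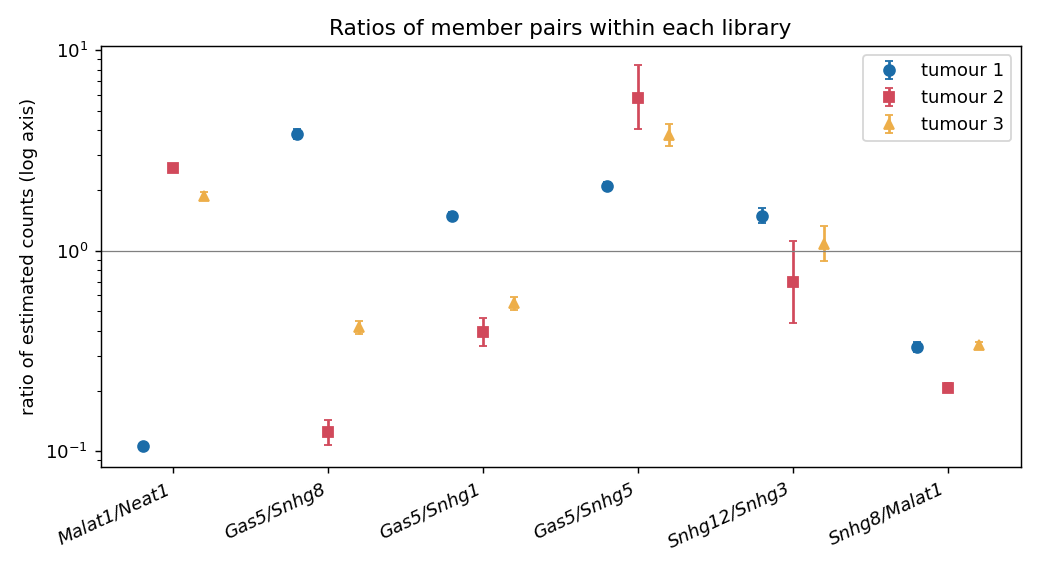
Ratio of the estimated counts of 6 pairs of members within each library (log axis), with exact 95% binomial intervals as bars. Malat1 over Neat1 is at 0.106 in tumour 1, against 2.59 and 1.89 in tumours 2 and 3, and Gas5 over Snhg8 is at 3.82, against 0.125 and 0.414.

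In the comparison of tumour 1 with the others, the members went both ways. Tumour 1 was the lowest of the 3 for 4 of 10 members, against 41.6% of the 12710 genes, and tumour 2 for 5 of 10, against 39.6%. Only Snhg5 was 2-fold or more above both others (1 of 10 members, against 22.1% of the 12710 genes), and Malat1 and Snhg8 were at least 2-fold below both (2 of 10, against 20.7%). At 4-fold, the same pair lay below (2 of 10, against 8.21%) and no member above (0 of 10, against 6.05%). The shares at 2-fold were near or under those of all genes. Scaled by library totals alone, 4 members lay 2-fold or more above both, against 40.7% of all genes, and 2 lay below both, against 10.5%. That scaling moved the median of all genes from 0.11 to 0.96. The median difference of the members was 0.85 on the log2 scale, against 0.11 over all genes, and without tumour 2 it changed sign to −0.16. Malat1 and Snhg8 stayed below and Neat1, Gas5, Snhg3, Snhg5 and Snhg12 stayed above in 10 of 10 alternatives each. Snhg1 and Epb41l4aos changed direction with library totals alone, Epb41l4aos also once a trend on GC content and length was removed, and Snhg6 without tumour 2.

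The comparison of tumour 2 with tumour 3, which share a lane, leaves tumour 1 out. It was chosen after seeing the data and has 1 library a side, hence no test. Of the 8 host genes, 7 were lower in tumour 2 than in tumour 3, against 51.6% of the 12710 genes, and Snhg8 was the exception. At least 2-fold lower were 5 of the 10 members, all of them hosts (Gas5, Snhg3, Snhg5, Snhg6 and Snhg12), against 8.81% of genes, and the same 5 hosts were at least 2-fold below both other tumours, against 7.14% of genes. No member was at least 2-fold higher in tumour 2, against 7.39% of genes. Snhg3 at −1.01 and Snhg1 at −0.98 lay just on either side of the 2-fold threshold. The median over the hosts was −1.23 on the log2 scale and over all 10 members −0.99, against −0.03 over all genes. Malat1 was higher in tumour 2 by 0.99 and Neat1 by 0.53. Each of the 7 hosts stayed lower in tumour 2 in 9 of 9 alternatives, but the count at 2-fold ranged from 4 to 7 members, and the median over the members was −0.52 after removal of a trend on GC content and length. The muscle markers were higher in tumour 2 than in tumour 3 (45240 against 19272 CPM) and epithelial markers lower (1336 against 1985 CPM), and their part in the host genes' difference was not tested.

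**Figure D3:**
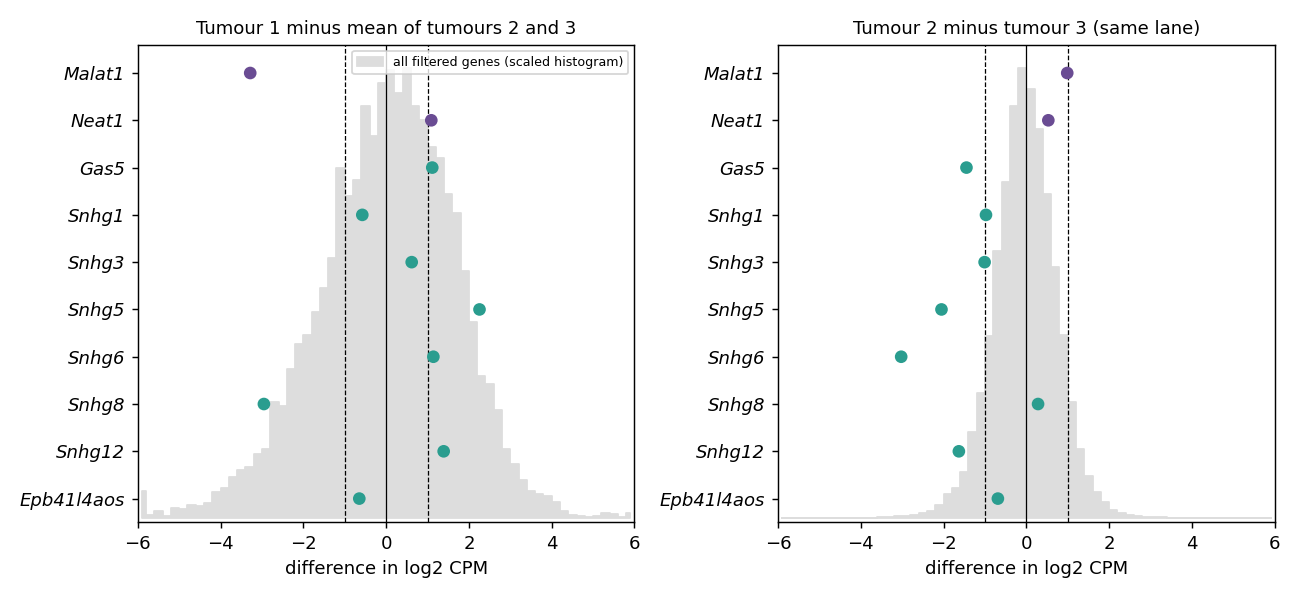
Difference in log2 CPM of each member (points; Malat1 and Neat1 in purple, hosts in green) for tumour 1 minus the mean of tumours 2 and 3 (left) and for tumour 2 minus tumour 3 (right), over a histogram of all 12710 genes scaled to its own height, with genes past the axis drawn at its ends. Dashed lines mark 2-fold. On the right, 7 of 8 hosts lie below 0, whereas on the left Malat1 at −3.28 and Snhg8 at −2.95 are the lowest members.

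The snoRNAs themselves were hardly captured. The 8 hosts hold 30 annotated snoRNA genes under 28 symbols, 10 of the genes in Gas5 and 8 in Snhg1. Of the 28 symbols, 5 had a count above 0 in any tumour and 2, Snora73a and Snora73b in Snhg3, reached 10 counts, at a sum of 22, 31 and 20 counts in tumours 1, 2 and 3. Snord22 in Snhg1 had 0, 5 and 6 counts. The values of the hosts therefore describe the host transcripts and not the mature snoRNAs.

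Per base of transcript the order of the members differed from that of their CPM. Divided by the length of the longest annotated transcript, Snhg8 was highest at 178 ± 128 CPM per kb (SD, n = 3), followed by Malat1 at 77.6 ± 68.5, Snhg1 at 32.3 ± 14.3, Gas5 at 25.4 ± 13.7 and Neat1 at 22.2 ± 10.7 CPM per kb. Below these came Epb41l4aos at 20.5 ± 7.57, Snhg5 at 18.9 ± 16.9, Snhg3 at 17.5 ± 6.48, Snhg6 at 11.3 ± 8.19 and Snhg12 at 7.82 ± 4.91 CPM per kb. No pair of neighbours in this order differed by more than the larger of their SDs, and the ranges of each pair overlapped. Snhg8 was above Malat1 in 3 of 3 tumours and Snhg3 above Snhg6 in 3 of 3. With the mean length of all annotated transcripts, Malat1 came first at 250 CPM per kb and Snhg8 next at 236. That order held in tumour 2 only (Malat1 475, Snhg8 365 CPM per kb). Snhg8 was the higher in tumour 1 (42.7 against 34.6) and in tumour 3 (300 against 240). The longest Gas5 transcript has 2556 bases and the mean of its 25 transcripts 741 bases, so levels per kb depend on which forms are present.

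Every member varied beyond counting noise (10 of 10, chi-square test over the 3 libraries, Benjamini-Hochberg adjusted over all genes, against 94.2% of genes). The median SD of log2 CPM over the tumours was 1.06 for the members, against 0.72 for all genes. Malat1 had the largest SD at 1.96, above 95.2% of genes, and Epb41l4aos the smallest at 0.51. The biological coefficient of variation that edgeR fitted gene by gene was 84.2% for Malat1 and 55.0% for Snhg1, the extremes of the 10, against a common value of 63.5%.

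Genes with the closest pattern were found by the distance of log2 CPM, centred over the 3 tumours, among 11783 genes. Closest to Malat1 were Yipf3, a Golgi membrane protein gene, at 61.2, 862 and 435 CPM (distance 0.03), Lamtor4, a subunit gene of the lysosomal Ragulator complex, at 57.5, 798 and 414 CPM (0.04), and Thap3 at 13.2, 182 and 87.6 CPM (0.05). Closest to Gas5 were Tle6 at 22.9, 6.46 and 17.6 CPM (0.01), Hax1 at 46.4, 13.0 and 36.3 CPM (0.03) and the mitochondrial ribosomal protein gene Mrpl36 at 40.4, 11.4 and 31.6 CPM (0.03). With 3 points among so many genes, close matches are bound to be found.

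Other lncRNAs went both ways in tumour 1, as the members did. A list of 15 further host lncRNAs also held Dleu2 and Mir17hg, which are known as hosts of microRNAs. Of the 15, 11 were in the table and 7 passed the filter, of which 2 were past 2-fold upward and 3 past 2-fold downward against both others in tumour 1. Without that pair, chosen after the values were seen, 1 of 5 was upward and 2 downward. Snhg20 (19.5, 269 and 211 CPM in tumours 1, 2 and 3) and Dleu2 (10.6, 155 and 68.4 CPM) were low in tumour 1, and Rian, an imprinted host of snoRNAs, was at 35.04, 59.7 and 54.6 CPM. Snhg7 was listed at 0 in all 3. Snhg9 (16, 39 and 155 counts in tumours 1, 2 and 3), Snhg11 (173, 23 and 7) and Snhg14 (438, 5 and 3) did not pass the filter. The counts of this list leave these 3 genes out, although their levels differed between tumours. In tumour 2 minus tumour 3 this list had a median of 0.08 and 3 of 7 were lower in tumour 2, or 2 of 5 without the microRNA hosts. Whether it differs from the members in this was not tested. Of 13 other lncRNAs past the filter, 4 were past 2-fold upward and 3 past 2-fold downward against both others in tumour 1. Over all 12710 genes these shares were 22.1% upward and 20.7% downward. The imprinted lncRNAs Meg3 (46.8, 1002 and 448 CPM), H19 (14.7, 188 and 126 CPM) and Kcnq1ot1 (2.30, 190 and 136 CPM) were low in tumour 1. Xist, the RNA that silences an X chromosome, was high there (272, 109 and 76.6 CPM).

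Genes of the proteins that work with these RNAs had a median SD of log2 CPM over the tumours of 0.49 for snoRNP proteins, 0.59 for paraspeckle proteins and 0.58 for nuclear speckle proteins, against 1.06 for the members and 0.72 for all genes. The lncRNA lists above were nearer to the members, at 1.12 for the further host lncRNAs and 0.94 for the 13 other lncRNAs. Of 15 snoRNP protein genes past the filter, 4 were high and 1 low in tumour 1 by this 2-fold rule. By the same rule 22.1% of all genes were high and 20.7% low. The methyltransferase gene Fbl was at 151, 187 and 214 CPM, the assembly factor gene Nolc1 at 158, 99.1 and 119 CPM, and Nhp2, of the H/ACA core, at 94.2, 537 and 506 CPM. In tumour 2 minus tumour 3, 14 of 15 were lower in tumour 2 with a median of −0.45, and 2 at least 2-fold. Of all genes, 51.6% were lower in tumour 2 and 8.81% at least 2-fold. Of 15 paraspeckle protein genes, 5 were high in tumour 1 by the 2-fold rule and none low, among them Fam98a (34.2, 7.71 and 11.8 CPM). The core gene Sfpq, at 226, 257 and 273 CPM, and Hnrnpk, at 443, 465 and 523 CPM, were even while Neat1 was highest in tumour 1. All 15 were lower in tumour 2 than in tumour 3, with a median of −0.58 and 1 of them at least 2-fold.

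Of 15 nuclear speckle genes, 3 were high and 1 low in tumour 1 by this 2-fold rule, against 22.1 and 20.7% of all genes. In tumour 2 minus tumour 3, 13 of 15 were lower in tumour 2 with a median of −0.28. At least 2-fold lower was 1 of them, against 8.81% of all genes. Son, a speckle scaffold gene, was at 161, 415 and 518 CPM, Srsf2 at 301, 155 and 174 CPM, Srsf3 at 266, 78.2 and 168 CPM, and Pnisr at 58.7, 12.3 and 9.02 CPM. Of 15 genes of nonsense-mediated decay, 1 was high and 1 low in tumour 1 by this 2-fold rule, and their median in tumour 2 minus tumour 3 was −0.06. Rbm8a, a subunit gene of the exon junction complex, was at 84.7, 518 and 498 CPM, Eif4a3 at 151, 115 and 145 CPM, and Smg5 at 116, 82.8 and 116 CPM.

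Protein-coding snoRNA hosts with a TOP start likewise went both ways in tumour 1. Of 23, 3 were high and 6 low in tumour 1 by this 2-fold rule, against 22.1 and 20.7% of all genes. Rpsa (2341, 12490 and 10564 CPM) and Rplp2 (406, 14383 and 7779 CPM) were low in tumour 1. The median of the list lay the other way, at 0.40 for tumour 1 minus the mean of the others on the log2 scale, against 0.11 over all genes. In tumour 2 minus tumour 3, 18 of 23 were lower in tumour 2 with a median of −0.62, and 5 at least 2-fold, against 8.81% of all genes. Of 15 other protein-coding hosts, 3 were high and 3 low in tumour 1 by this 2-fold rule, and the median in tumour 2 minus tumour 3 was −0.33. Nop56, Nop58 and Dkc1 are on this list and on that of snoRNP proteins, so these lists are not separate. The nucleolin gene Ncl was at 639, 385 and 485 CPM, Eif4g2 at 601, 328 and 386 CPM, the chaperone gene Hspa8 at 901, 65.9 and 105 CPM, and Prrc2a at 397, 4475 and 2130 CPM. Ribosomal protein genes have near-identical pseudogenes that can take a share of their reads, so these values are uncertain. The lists were chosen with earlier results of these data known, and no list was tested against other genes.

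**Figure D4:**
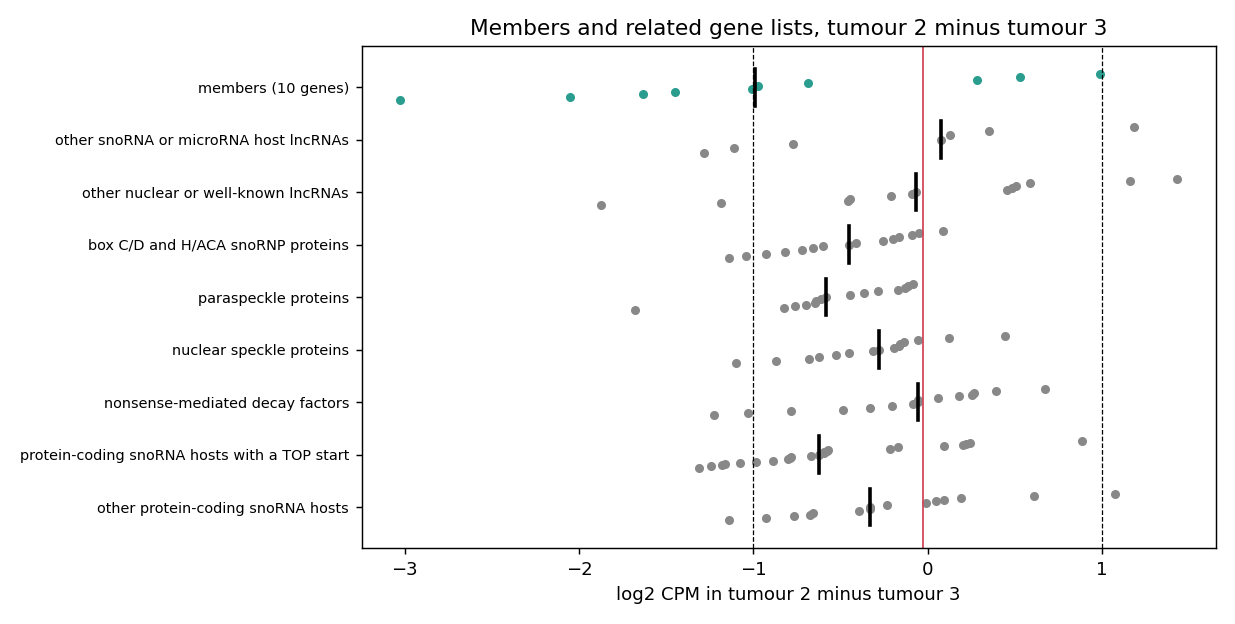
Difference in log2 CPM, tumour 2 minus tumour 3, for the 10 members (green) and for the genes past the filter of 8 related lists (grey), with the median of each list as a black bar, the median of all 12710 genes as a red line and 2-fold as dashed lines. The members' median is −0.99, that of the other snoRNA or microRNA host lncRNAs 0.08 and that of all genes −0.03.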

How the data were processed

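The values the authors deposited are estimated counts of each gene, which the file headers name as Salmon read numbers, unscaled for depth or length. The submitters' processing notes also name STAR, SAMtools, Picard and build mm10. Versions, annotation and strandedness: not given in the sources used here. Reads were paired, of 50 bases.

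The estimated counts were rounded. Genes were kept by filterByExpr of edgeR 4.0.16 (R 4.3.3; minimum count 10, minimum total 15), and library totals scaled with TMM factors of 1.48, 0.722 and 0.936. With a single group, a gene had to pass the filter's cutoff in all 3 libraries. Genes near absent from 1 tumour, such as Acta1 (14, 14798 and 24749 counts in tumours 1, 2 and 3), are thus missing from the shares over 12710 genes. Log2 CPM used a prior count of 2. A gene was called apart at 2-fold against both other tumours. Intervals cover counting error only. Named genes were the members, their neighbours and hosted snoRNAs, the 3 highest and the most different gene of each list, and the closest patterns; a few of these are not reported here. Positions and lengths came from GENCODE M21 (GRCm38, the assembly of mm10), start sites from RefSeq. Length and GC content were known for 12343 (97.1%) of the filtered genes. The members and lists were chosen with earlier results of these data known.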

Additional observations from a re-analysis of the deposited data

How the results depend on the processing

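The alternatives run were DESeq2 1.42.0 size factors, library totals alone, no filter, a mean CPM of at least 5, and prior counts of 0.5 and 10. Further ones were totals without muscle genes and Rn18s-rs5, removal of a GC and length trend, thinned counts and leaving out each tumour. Wherever these were recomputed, 10 members passed the filter and 8 to 10 varied beyond counting noise. The members' median difference in tumour 1, 0.85 in the main setting, ran from −0.16 without tumour 2 to 1.71 with library totals alone. Its sign was thus not kept. Their median SD of log2 CPM, 1.06 in the main setting, ran from 0.71 without tumour 1 to 1.43 without tumour 3. The count of members high in tumour 1 by 2-fold was 1, but 4 with library totals alone, 0 at 4-fold and 2 to 5 when tumour 2 or 3 was left out, where only 1 other tumour remains. The count below was 2, and 2 to 4 when one of these was left out. Library totals alone moved the median difference of all genes in tumour 1 to 0.96, and that of tumour 2 minus tumour 3 to −0.40. The log2 difference of Snhg6 in tumour 1, 1.14 with all tumours, was −0.41 without tumour 2 and 2.66 without tumour 3, and the cause was not tested. Levels per kb used the mean transcript length as an alternative. With 14 to 62 counts in tumour 2 for Snhg3, Snhg5, Snhg6, Snhg12 and Epb41l4aos, depth limits the precision there. No paired analysis was possible because there is a single group.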
